A study of Mus musculus with 15 samples.

Results

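The glycolysis and hypoxia-response genes described here are 30 named mouse genes, of 23462 genes that the probes of the array name. They were picked by name from textbook pathways, with earlier results of these data known: 2 glucose transporters, 15 enzymes of glycolysis, the regulator *Pfkfb3*, 5 genes of lactate and pyruvate handling, and 7 genes known to respond to low oxygen. All 30 had a probe, and 29 were bright enough to be tested. Expression was measured in MEFs (Mouse Embryonic Fibroblasts, connective tissue cells) of the established line Balb/c 3T3 clone A31, which is 1 clone, on 15 one-color oligonucleotide arrays, 3 for each of 5 groups. Control MEFs were left unstimulated. The other groups received recombinant TNFα at 10 ng/ml, TGFß1 at 5 ng/ml, IL-1β at 1 ng/ml, or IL-6 at 20 ng/ml together with sIL-6Rα at 25 ng/ml. The paper's results give a stimulation of 24 h for the arrays of TNFα and TGFß1. The labels give 24 or 72 h for the cultures as a whole, and the time for IL-1β and IL-6 is not given in the sources used here. No gene was edited and no animal was used, and the labels separate the groups by the recombinant protein added. Arrays are called by their group and the number that opens their label.

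Glycolysis breaks glucose down to pyruvate in the cytosol, and lactate dehydrogenase can turn that pyruvate into lactate, which monocarboxylate transporters carry out of the cell. When oxygen is short, hypoxia-inducible factors (HIF) escape degradation and bind short DNA elements beside many of these genes, which raises glucose uptake, glycolysis and lactate export while pyruvate dehydrogenase kinases hold pyruvate back from the mitochondria. Fibroblasts in culture are known for high glycolysis even in air, and both cytokines and growth factors can act on the same genes.

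The core letters of the HIF element, ACGTG or GCGTG, were looked for on both strands in the RefSeq promoters (GRCm38.p6, from 250 bases before to 50 after the annotated start) of the members. Promoters were at hand for 28 of the 30 members, and 25 of these 28 (89.3%) held the core in at least 1 promoter, against 46.7% of the 27025 genes with a promoter in the same table. Counted by promoter, 33 of 41 (80.5%) held it, against 43.8% of all promoters. The core holds a CG pair, and the members' promoters were richer in G and C, with a median of 62.3% against 52.7%. The part of base composition in this difference was not tested. The core was found in 7 of the 8 members that fell with TNFα and have a promoter here, in 6 of the 7 that fell with TGFß1, in all 3 that rose with TGFß1, and in 14 of the 16 called in no comparison with control. The promoters of 6 members are shown because these members carry the results below: the first 4 fell with both TNFα and TGFß1, *Pfkp* fell with TNFα, and *Ddit4* rose with TGFß1. Of a gene with several starts, the promoter with the most cores was picked. Another promoter of *Pdk1* (chr2:71874654-71874953, 40.3% G and C) held no core and is not shown. Each line holds the 200 bases before the start, 5′ to 3′ on the gene's own strand, with the core on either strand in capitals.
Pdk1 (chr2:71873024-71873223, plus strand): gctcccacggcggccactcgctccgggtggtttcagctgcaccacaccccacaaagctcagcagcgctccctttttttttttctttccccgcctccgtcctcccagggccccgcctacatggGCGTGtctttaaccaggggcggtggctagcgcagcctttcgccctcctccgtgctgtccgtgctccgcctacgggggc
Bnip3 (chr7:138909507-138909706, minus strand): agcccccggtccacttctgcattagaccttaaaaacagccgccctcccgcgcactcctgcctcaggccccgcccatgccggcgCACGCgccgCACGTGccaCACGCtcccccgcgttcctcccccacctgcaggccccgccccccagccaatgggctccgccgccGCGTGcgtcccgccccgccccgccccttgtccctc
Slc16a3 (chr11:120948867-120949066, plus strand): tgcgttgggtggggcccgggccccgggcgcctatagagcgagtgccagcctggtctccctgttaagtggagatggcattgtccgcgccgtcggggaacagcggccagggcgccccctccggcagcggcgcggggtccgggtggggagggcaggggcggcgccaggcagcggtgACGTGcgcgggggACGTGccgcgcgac
Eno2 (chr6:124769674-124769873, minus strand): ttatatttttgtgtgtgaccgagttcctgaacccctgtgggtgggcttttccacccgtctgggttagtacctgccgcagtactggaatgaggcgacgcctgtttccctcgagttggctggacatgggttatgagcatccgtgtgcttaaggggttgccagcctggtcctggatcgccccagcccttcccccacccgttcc
Pfkp (chr13:6648772-6648971, minus strand): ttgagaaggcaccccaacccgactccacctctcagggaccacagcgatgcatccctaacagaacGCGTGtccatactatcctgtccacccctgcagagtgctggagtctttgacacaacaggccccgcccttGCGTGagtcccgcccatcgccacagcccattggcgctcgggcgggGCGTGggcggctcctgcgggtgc
Ddit4 (chr10:59951771-59951970, minus strand): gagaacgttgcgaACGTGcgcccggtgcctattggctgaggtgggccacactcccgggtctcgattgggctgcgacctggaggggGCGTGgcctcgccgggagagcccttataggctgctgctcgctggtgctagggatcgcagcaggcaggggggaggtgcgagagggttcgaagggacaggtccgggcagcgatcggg
Among these 6, *Bnip3* held the most cores in this window, 2 on its own strand and 3 on the other, and 1 pair of opposite matches shares letters. *Slc16a3* held 2 close to its start and *Eno2* held none. The promoters of *Pdk1* and *Pfkp* shown here each have a further core that was counted but is not marked. In *Pdk1* it begins 2 bases before the start and crosses it, and in *Pfkp* it lies after the start. A match is a description of letters and not a measured binding site.

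**Figure D1:**
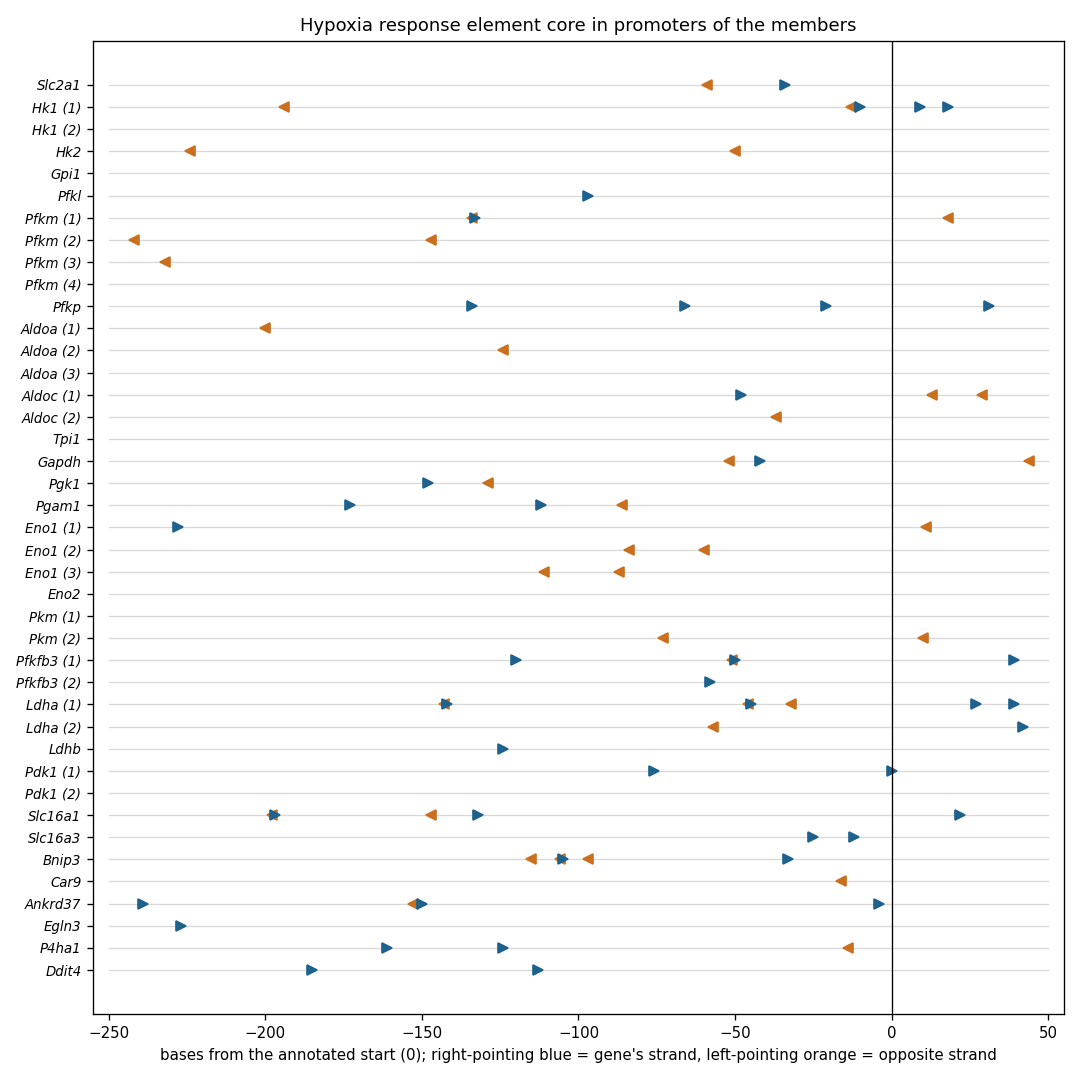
Position of the core ACGTG or GCGTG in each promoter of the 28 members with a promoter at hand, in bases from the annotated start (x axis), 1 line per promoter and with a number where a gene has several. Right-pointing blue marks lie on the gene's strand and left-pointing orange marks on the other; *Eno2*, *Gpi1* and *Tpi1* have no mark.

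Levels are given as the log2 processed signal minus the 75th percentile of the same array, so a level of 0 is a spot as bright as that percentile. A difference of levels is a log2 fold-change. Calls needed both a q-value under 0.05 and a fold-change of 1.5 or more in either direction. The mark set by the scanner's software put 48.3% to 54.9% of the probes of an array well above background, and no probe was saturated. All 10 fibroblast markers were well above background on all 15 arrays. Of 7 macrophage markers, *Cd68*, *Csf1r*, *Itgam* and *Cd14* were well above background on all arrays and *Ptprc*, *Adgre1* and *Lyz2* on none. Of 5 endothelial markers *Pecam1* was so on all arrays and 3 on none, and of 6 epithelial markers 0 on all and 2 on none. The summed level of the fibroblast list, on the linear scale and relative to the 75th percentile, was 665 to 847 in controls, 545 to 709 with TNFα and 687 to 876 with TGFß1. The dim epithelial list summed to 0.0803 to 0.16 in controls, 0.0576 to 0.0749 with TNFα and 0.163 to 0.422 with TGFß1, and the part of these shifts in the results was not tested. The summed level of the macrophage list was 7.01 to 14.9 in controls, 8.16 to 15.6 with TNFα and 8.07 to 13.8 with TGFß1. In RNA from a whole culture, fewer cells of a kind and less RNA per cell cannot be told apart.

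The members called with TNFα all fell, whereas those called with TGFß1 went both ways. With TNFα, 9 of 29 members fell and 0 rose, where 6.06% of all 29334 probes tested fell and 4.12% rose. With TGFß1, 7 members fell and 3 rose, where 10.8% of probes fell and 7.17% rose. *Pfkl*, *Eno2*, *Ldhb*, *Pdk1*, *Slc16a3* and *Bnip3* fell with both cytokines. Both comparisons use the same 3 control arrays, so these counts are not independent. The median log2 fold-change over the members was -0.47 with TNFα and -0.13 with TGFß1, beside 0.04 and 0.05 over all probes. With TNFα 27 of the 29 fitted differences were below 0, and with TGFß1 18 were. Of all 29334 probes, 13438 were below 0 with TNFα and 13355 with TGFß1. A test for any difference among the 5 groups called 16 members (55.2%), against 25.8% of probes.

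**Figure D2:**
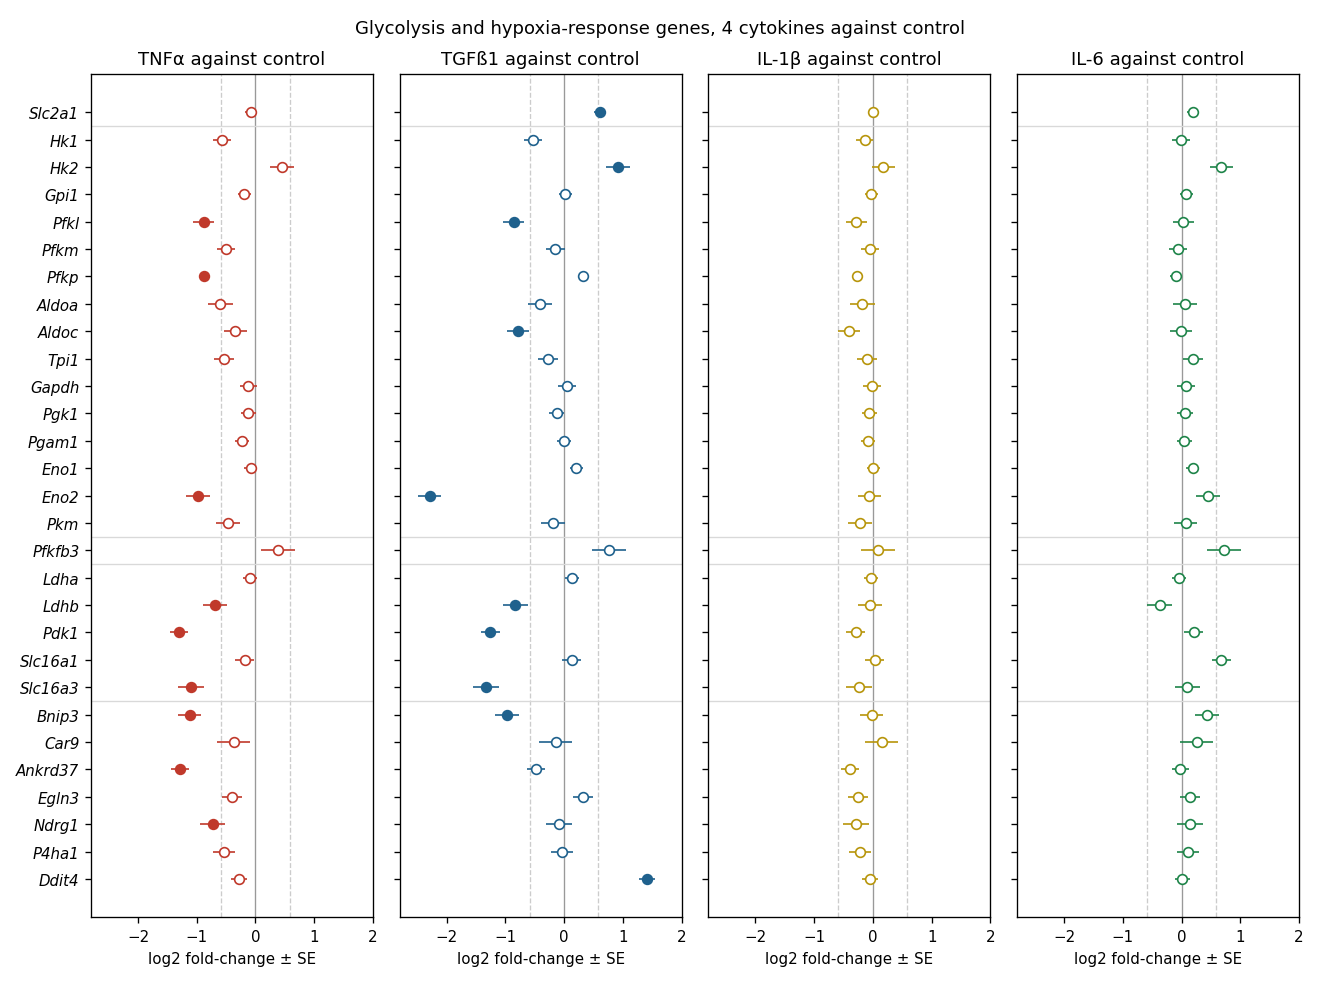
Log2 fold-change against control with its standard error (x axis) for the 29 members tested (y axis, by role: transport, glycolysis in pathway order, regulator, lactate and pyruvate, hypoxia response), 1 panel for each cytokine. Filled points were called, open points were not, and dashed lines mark a fold-change of 1.5; the TNFα panel has 9 filled points, all left of 0, and the IL-1β and IL-6 panels have none.

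Of the genes for glucose entry and its first phosphorylation, the transcripts of *Slc2a1* and *Hk2* rose with TGFß1, and *Hk1* was below control without being called. *Slc2a1* encodes GLUT1, the basal glucose transporter. Its level was 4.00, 4.00 and 4.19 on control arrays 1, 6 and 11 and 4.67, 4.70 and 4.66 on TGFß1 arrays 2, 7 and 12. The groups did not overlap, and the rise was 0.61 ± 0.10 (log2 fold-change ± SE, 1.53-fold, q = 0.000942). With TNFα the levels were 3.91, 3.97 and 4.05, which overlapped the controls, and *Slc2a1* was not called (-0.08 ± 0.10, q = 0.645). The rise with TGFß1 lay at the fold-change threshold and was not called without control 1 or without control 6 (0.58 in each case) or after quantile normalization (0.46, q = 0.00207). *Slc2a3* encodes GLUT3, and its probe was well above background on 1 of 15 arrays only, IL-1β 15, so that it was not tested. On that array its level was -3.31, and on the other 14 it was -7.94 to -5.52, with control values of -7.94, -7.77 and -7.14.

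Hexokinases trap glucose in the cell by phosphorylating it. *Hk2*, the inducible form, had levels of 0.81, -0.09 and 0.49 in controls 1, 6 and 11 and of 1.39, 1.25 and 1.34 with TGFß1. All TGFß1 arrays lay above all controls, although control 6 was far below the other two, and the rise was 0.92 ± 0.20 (1.90-fold, q = 0.00547). With TNFα *Hk2* stood at 0.96, 0.65 and 0.95, which overlapped the controls (0.45 ± 0.20, q = 0.173). With IL-6 the levels were 1.23, 1.05 and 0.98, all above the controls, and the difference of 0.68 ± 0.20 was not called (q = 0.677). *Hk1*, the widely expressed form, passed the q-value but not the fold-change with either cytokine, at -0.57 ± 0.15 with TNFα (q = 0.0243) and -0.53 ± 0.15 with TGFß1 (q = 0.0193). After quantile normalization *Hk1* was called with both, at -0.62 and -0.67.

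The subunits of phosphofructokinase, the enzyme of the committed step, did not move alike. *Pfkl*, the liver-type subunit, fell with both cytokines. Its levels were 3.19, 2.88 and 3.14 in controls, 1.98, 2.21 and 2.37 with TNFα and 1.95, 2.44 and 2.23 with TGFß1, with no overlap between the controls and either group. The fall was -0.88 ± 0.18 with TNFα (1.84-fold, q = 0.00611) and -0.86 ± 0.18 with TGFß1 (1.81-fold, q = 0.00406). *Pfkp*, the platelet-type subunit, fell with TNFα and not with TGFß1. It held 1.07, 1.11 and 1.08 in controls, 0.21, 0.36 and 0.09 with TNFα and 1.42, 1.35 and 1.46 with TGFß1. The TNFα arrays lay below and the TGFß1 arrays above a tight control group. The fall with TNFα was -0.87 ± 0.09 (1.82-fold, q = 6.66e-05) and was called for both probes of the gene. The difference with TGFß1 was 0.32 ± 0.09, past the q-value (q = 0.0202) and under the fold-change threshold. Set directly against TNFα, TGFß1 gave a *Pfkp* level 2.28-fold higher (1.19 ± 0.09, q = 2.43e-06). *Pfkm*, the muscle-type subunit, was not called with TNFα (-0.50 ± 0.16, q = 0.0563) or TGFß1 (-0.15 ± 0.16, q = 0.525). *Pfkfb3*, whose product makes the main activator of phosphofructokinase, was at -1.69, -2.29 and -1.53 in controls and at -1.16, -0.86 and -1.17 with TGFß1, with no overlap. That difference was not called (0.77 ± 0.29, q = 0.0686), but was with the slide in the model (0.89, q = 0.0196).

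Among the later enzymes, *Aldoc* and *Eno2* fell, whereas *Aldoa* and *Eno1* were not called. Aldolase splits the phosphorylated sugar. *Aldoc* fell with TGFß1, from -0.79, -0.21 and -0.36 in controls to -1.32, -1.26 and -1.11, without overlap (-0.78 ± 0.19, 1.71-fold, q = 0.0109). *Aldoa* was not called with TNFα (-0.60 ± 0.21, q = 0.0816) or TGFß1 (-0.41 ± 0.21, q = 0.172). Enolase makes phosphoenolpyruvate. *Eno2*, the isoform known from neurons, had the largest fall of all members tested with TGFß1. Its levels were -0.05, 0.15 and 0.11 in controls, -1.24, -0.86 and -0.63 with TNFα and -2.35, -1.96 and -2.35 with TGFß1. The 3 groups were separate. The fall was -0.98 ± 0.20 with TNFα (1.97-fold, q = 0.00701) and -2.29 ± 0.20 with TGFß1 (4.90-fold, q = 1.29e-05), and TGFß1 lay below TNFα by a further 2.48-fold (q = 0.000667). *Eno1*, the general isoform, was not called with either, at -0.08 ± 0.11 and 0.21 ± 0.11.

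*Gapdh*, *Pgk1*, *Pgam1* and *Gpi1*, each the only gene of its step in the list, were not called in any comparison with control. Their fitted log2 fold-changes lay between -0.23 and -0.12 with TNFα and between -0.13 and 0.05 with TGFß1. The 6 tested probes of *Gapdh*, a common reference gene, gave -0.30 to -0.09 with TNFα and -0.05 to 0.17 with TGFß1. Such values leave small changes undecided. *Tpi1*, which interconverts the triose phosphates, was not called with TNFα for the probe that stands for it (-0.54 ± 0.17, q = 0.0624), while 2 of its 3 tested probes were called lower, and quantile normalization called it at -0.64. With the slide in the model 0 of these 3 probes were called, at -0.47 to -0.45 and all past the q-value. *Pkm*, pyruvate kinase, was at -0.47 ± 0.20 with TNFα (q = 0.161) and -0.19 ± 0.20 with TGFß1 (q = 0.543). Over the 15 glycolytic enzymes, 3 fell and 0 rose with TNFα, where 6.06% of all probes fell and 4.12% rose. With TGFß1 3 fell and 1 rose, where 10.8% and 7.17% of probes did. Called either way were 20% with TNFα and 26.7% with TGFß1, beside 10.2% and 18% of all probes.

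Of the 5 genes that handle lactate and pyruvate, *Pdk1*, *Slc16a3* and *Ldhb* fell with both cytokines, while *Ldha* and *Slc16a1* were called with neither. *Pdk1* encodes a kinase that switches pyruvate dehydrogenase off. It stood at 1.96, 2.22 and 2.19 in controls, at 0.57, 1.04 and 0.86 with TNFα and at 0.76, 0.77 and 1.05 with TGFß1. Every treated array lay well below every control. The falls were -1.30 ± 0.16 (2.46-fold, q = 0.000214) and -1.26 ± 0.16 (2.40-fold, q = 0.000177), and 3 of the 4 tested probes of the gene were called lower with each cytokine. The remaining probe gave -0.26 with each. *Slc16a3* encodes MCT4, the lactate exporter of glycolytic cells. Its levels, low on these arrays, were -2.83, -2.52 and -2.12 in controls, -3.55, -3.62 and -3.61 with TNFα and -3.89, -3.44 and -4.15 with TGFß1. Neither treated group reached the controls, and the falls were -1.10 ± 0.22 (2.14-fold, q = 0.00583) and -1.33 ± 0.22 (2.52-fold, q = 0.000992). With another background correction (normexp) the falls of this dim probe shrank to -0.57, no longer called, and to -0.62.

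*Ldhb* encodes the subunit of lactate dehydrogenase that favours pyruvate, and *Ldha* the one that favours lactate. *Ldhb* went from 3.26, 3.30 and 2.93 in controls to 2.36, 2.64 and 2.41 with TNFα and 2.24, 2.72 and 2.03 with TGFß1. Neither treated group overlapped the controls and both probes were called with each cytokine, at -0.69 ± 0.21 with TNFα (1.62-fold, q = 0.0474) and -0.83 ± 0.21 with TGFß1 (1.78-fold, q = 0.0125). These calls were near the threshold. The one with TNFα was lost when any 1 of the 6 arrays was left out (-0.81 to -0.62), and the one with TGFß1 without TGFß1 12 (-0.68, q = 0.0566). *Ldha* was at -0.09 ± 0.12 with TNFα and 0.13 ± 0.12 with TGFß1. *Slc16a1* encodes MCT1, which moves lactate either way, and was at -0.18 ± 0.16 and 0.13 ± 0.16.

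Of the 7 hypoxia-response genes, 3 fell and 0 rose with TNFα, where 6.06% of all probes fell and 4.12% rose. With TGFß1 1 fell and 1 rose, where 10.8% and 7.17% of probes did. Called either way were 42.9% with TNFα and 28.6% with TGFß1, beside 10.2% and 18% of all probes. *Bnip3*, which marks mitochondria for removal, fell with both. Its levels were 4.75 and 4.44 in controls 1 and 6, 3.18, 3.39 and 3.84 with TNFα and 3.41, 3.87 and 3.60 with TGFß1. The spot on control 11 was marked as an outlier and left out, so the fit used 2 controls, and no treated array overlapped them. The falls were -1.12 ± 0.20 (2.18-fold, q = 0.00396) and -0.97 ± 0.20 (1.96-fold, q = 0.00532). With that spot kept, the fall with TNFα was -1.07 (q = 0.00183). The call with TNFα was lost in a fit of only the TNFα and control arrays (q = 0.0537), and the call with TGFß1 with arrays scaled by their median (-0.90, q = 0.0644).

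*Ankrd37*, an ankyrin-repeat gene known as a HIF target, fell with TNFα. It stood at -0.47, -0.61 and -0.36 in controls and at -1.78, -1.77 and -1.75 with TNFα, which was the tightest treated group of the 9 members that fell (SD 0.02). The fall was -1.28 ± 0.15 (2.43-fold, q = 0.000178). With TGFß1 the levels were -1.10, -0.62 and -1.15, below the controls on every array but not called (-0.48 ± 0.15, q = 0.0396, under the fold-change threshold), and TGFß1 lay 1.75-fold above TNFα (q = 0.00312). *Ndrg1*, a gene induced by stress and differentiation, was lower on all TNFα arrays (3.05, 3.21 and 3.33) than in controls (3.61, 4.03 and 4.13), with a fall of -0.73 ± 0.22 (1.66-fold, q = 0.0456). Its call held in 1 of the 6 fits that left out an array, the one without control 1. With TGFß1 *Ndrg1* was at 3.85, 3.79 and 3.88, inside the control range.

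*Ddit4* encodes REDD1, an inhibitor of mTORC1 signalling, and was the member with the largest rise. It held 5.00, 5.14 and 5.24 in controls and 6.51, 6.68 and 6.43 with TGFß1, more than a whole log2 unit above the controls on every array. The rise was 1.41 ± 0.13 (2.66-fold, q = 1.52e-05). With TNFα its levels were 4.78, 4.66 and 5.08, and it was not called (-0.28 ± 0.13, q = 0.175). Set directly against TNFα, TGFß1 gave a level 3.24-fold higher (q = 2.23e-06). *Egln3*, a prolyl hydroxylase that marks HIF for degradation, was called in neither comparison with control (-0.40 ± 0.17 with TNFα and 0.32 ± 0.17 with TGFß1) but was 1.66-fold higher with TGFß1 than with TNFα (q = 0.0114). That call was lost without TNFα 9 or without TGFß1 7. *P4ha1*, a collagen prolyl hydroxylase, was not called (-0.53 ± 0.19 with TNFα, q = 0.0983). *Car9*, a carbonic anhydrase of the cell surface and a classical hypoxia marker, was near the detection limit, well above background on 11 of 15 arrays, and was not called with TNFα (-0.37 ± 0.28) or TGFß1 (-0.14 ± 0.28).

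**Figure D3:**
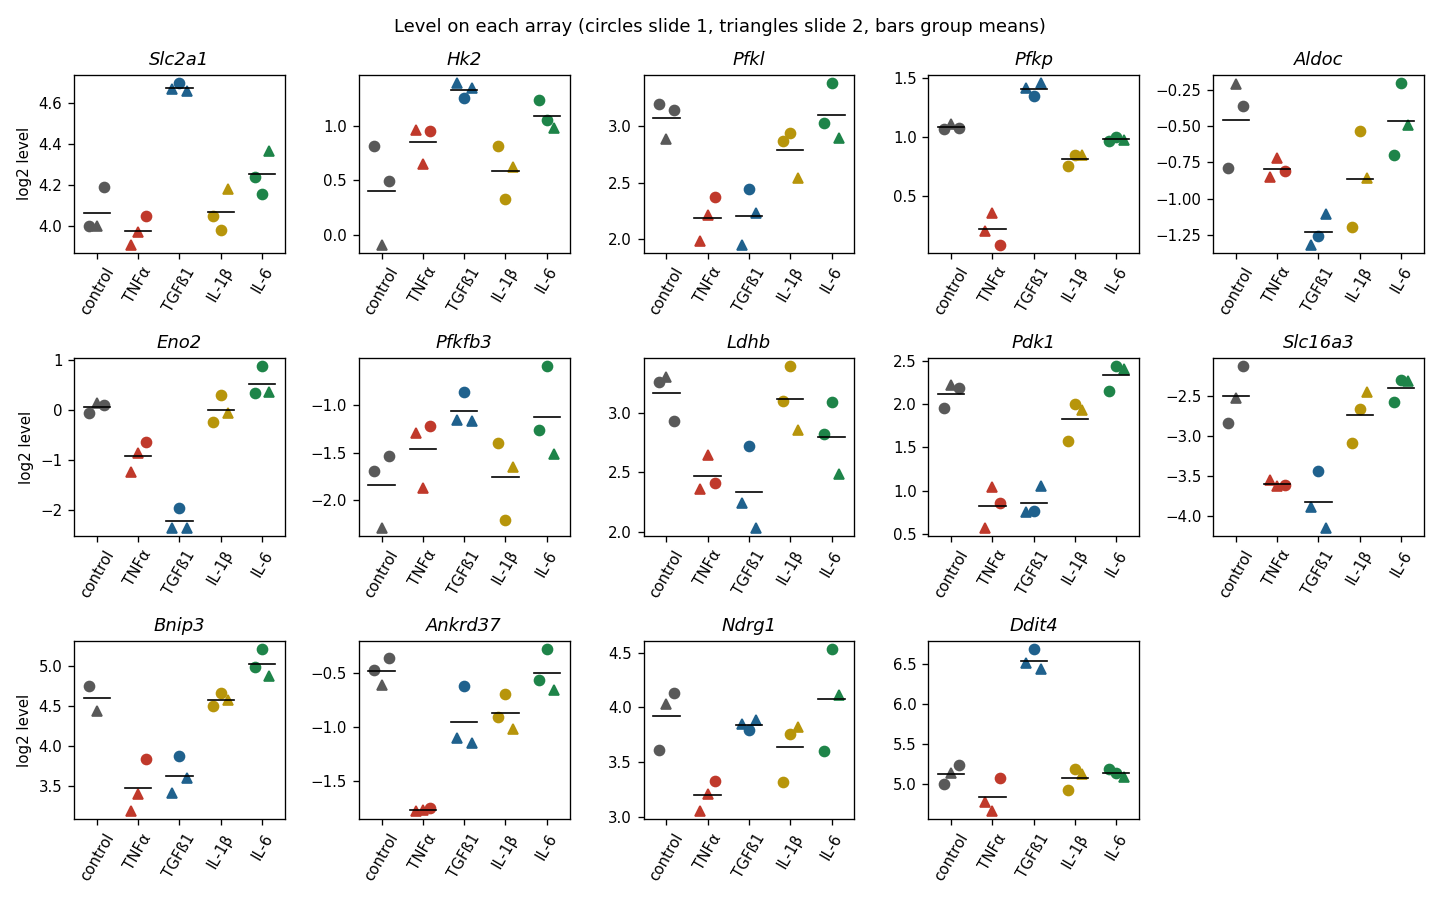
Log2 level relative to the array's 75th percentile (y axis, a separate scale in each panel) on each array of the 5 groups (x axis) for the 14 members called against control with or without the slide in the model. Circles lie on slide 1 and triangles on slide 2, and bars are group means; *Bnip3* has 2 control points, and the TNFα and TGFß1 points of *Pdk1* all sit below every control point.

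In the direct comparison of TGFß1 with TNFα, 5 members were higher with TGFß1 and 1 was lower, where 5.02% of probes were higher and 6.81% lower. The 5 were *Slc2a1*, *Pfkp*, *Ankrd37*, *Egln3* and *Ddit4*, and the 1 was *Eno2*. *Pdk1* differed by 0.04 ± 0.16 and *Pfkl* by 0.02 ± 0.18 in this comparison, and neither was called. *Hk2*, called against control with TGFß1 and not with TNFα, differed by 0.48 ± 0.20 here and was not called (q = 0.141).

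No member was called with IL-1β or IL-6 by the same criteria. Of the 29 fitted differences, 23 were below 0 with IL-1β (median -0.06), as were 14657 of the 29334 probes. With IL-6 22 were above 0 (median 0.08), as were 14614 of the probes. All IL-6 arrays lay above all controls for 5 members and below them for 1, where 2.65% and 2.56% of probes did. For IL-1β these counts were 0 and 2, where 3.12% and 2.27% of probes did. With IL-1β, 0 of 29 members were called by limma, where 0.245% of all probes were called higher and 0.00682% lower. The unadjusted p was below 0.05 for 1088 of the 29334 probes and for 2 members, *Pfkp* (-0.27 ± 0.09) and *Ankrd37* (-0.39 ± 0.15). With IL-6, 0 members were called, where 0.0648% of all probes were called higher and 0% lower. Of the 29334 probes 955 had an unadjusted p below 0.05. So had 4 members, *Hk2*, *Eno2*, *Pfkfb3* and *Slc16a1*, all with fitted values above 0. *Slc16a1*, shown because its value was seen to be the smallest p of these, had levels of 2.84, 3.47 and 3.11 on IL-6 arrays 3, 8 and 13 against 2.59, 2.27 and 2.52 in controls (0.68 ± 0.16, unadjusted p = 0.00111, q = 0.357). Its groups did not overlap. With the slide and the run of label numbers in the model, *Hk2* was called with IL-6 (0.68, q = 0.0167). Over all probes that model called 160 higher and 68 lower with IL-6, against 19 and 0 in the main fit. Compared with IL-1β, TGFß1 gave 4 members higher and 5 lower, where 6.29% and 10.7% of probes were. IL-1β gave 6 members higher than TNFα and 0 lower, where 3.11% and 1.72% of probes were. These 6 were *Pfkp*, *Eno2*, *Pdk1*, *Slc16a3*, *Bnip3* and *Ankrd37*, and the count was 3 in a fit of only those 2 groups and without IL-1β 10.

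The arrays came from 2 slides, and each slide held arrays of every group. Controls, IL-1β and IL-6 had 2 arrays on slide 1 and 1 on slide 2, and TNFα and TGFß1 had 1 and 2. Of the 29 members, 11 differed between slides at a q-value below 0.05, with a median of -0.18 (slide 2 minus slide 1, on the log2 scale), against 10402 of 29334 probes with a median of -0.07. With the slide in the model, 9 members fell and 0 rose with TNFα, where 6.27% of probes fell and 5.68% rose, and 7 fell and 4 rose with TGFß1, where 10.9% and 9.18% did. The added rise was that of *Pfkfb3*, and 21 members were called for any difference among the groups, against 37.6% of probes. Within slide 1 the median difference from control over the members was -0.25 with TNFα and -0.04 with TGFß1, and within slide 2 it was -0.52 and -0.11. *Pdk1* differed from control by -1.22 and -1.41 with TNFα on slides 1 and 2 and by -1.31 on both with TGFß1. *Eno2* with TGFß1 differed by -1.99 and -2.50, and *Ddit4* by 1.55 and 1.33. *Hk2* with TGFß1 differed by 0.60 on slide 1 and by 1.45 on slide 2, which holds the low control 6.

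**Figure D4:**
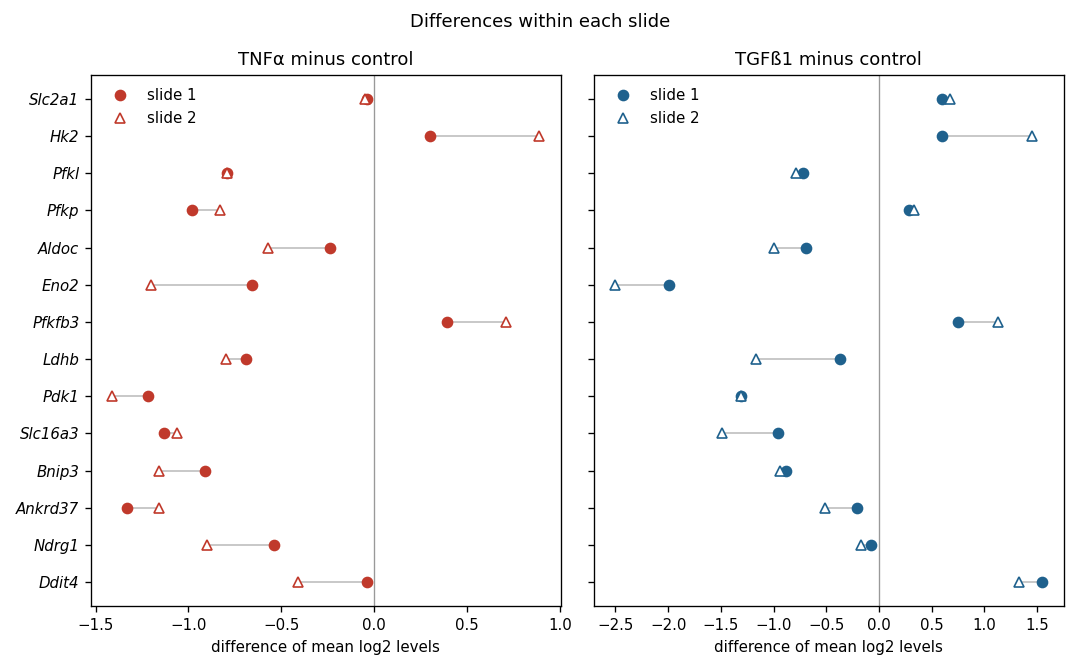
Difference of the mean log2 level from control (x axis) within slide 1 (filled circles, 1 treated array and 2 controls) and within slide 2 (open triangles, 2 treated arrays and 1 control) for the 14 members of the plot of levels; *Bnip3* has 1 control on each slide. Both slides put each member that fell with TNFα, and each that rose or fell with TGFß1, on the same side of 0; *Pdk1* with TGFß1 stands at -1.31 on both.

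The hypoxia-inducible factors and their regulators, 15 of 18 tested, had 0 called with TNFα and 2 (13.3%) with TGFß1, beside 10.2% and 18% of all probes. *Hif1a*, the oxygen-regulated subunit, was at -0.36 ± 0.12 with TNFα (q = 0.0676) and 0.07 ± 0.12 with TGFß1 (q = 0.714), and *Epas1*, *Hif3a* and *Arnt2* were too dim to test. With TNFα 4 of the 15 had an unadjusted p below 0.05 in limma, as had 7815 of all 29334 probes. With TGFß1 1 rose and 1 fell. The one that rose was *Siah2*, a ubiquitin ligase for prolyl hydroxylases (0.79 ± 0.14, q = 0.00197). The one that fell was *Cited2*, which competes with HIF for its coactivators (-0.74 ± 0.23, q = 0.0318); this call held in 2 of the 6 fits without an array, those without control 6 and without TGFß1 7.

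Other genes known to rise in hypoxia, 35 of 36 tested, moved in both directions as well. With TNFα 2 rose and 9 fell, where 4.12% of all probes rose and 6.06% fell. With TGFß1 7 rose and 8 fell, where 7.17% and 10.8% of probes did. Called either way were 31.4% of the list with TNFα and 42.9% with TGFß1, beside 10.2% and 18% of all probes. *Vegfa*, the main growth factor for blood vessels, rose with TGFß1 from 1.18, -0.06 and 0.71 in controls to 4.70, 4.80 and 4.60 (4.09 ± 0.38, 17.0-fold, q = 2.03e-05), and all 4 of its tested probes were called, at 1.92 to 4.09. With TNFα it was called at 1.30 ± 0.38 (q = 0.0437), and 2 of its 4 tested probes were called, the 4 lying at 1.12 to 1.39. The call was kept in 2 of the 6 fits without an array, those without control 1 and without TNFα 9. It was also lost with arrays scaled by their median, with no filter on dim probes and in a fit of only the TNFα and control arrays. *Ppp1r3c*, which brings a phosphatase to glycogen, fell from -0.22, 1.35 and 0.24 to -4.81, -3.68 and -4.60 with TNFα and to -4.44, -3.17 and -4.51 with TGFß1. These falls of -4.82 ± 0.56 (q = 0.000139) and -4.50 ± 0.56 (q = 0.000156) were the largest on the list, and over the alternatives they ranged from -5.16 to -3.32 and from -4.93 to -3.17. *Adm*, adrenomedullin, fell with TGFß1 (-3.11 ± 0.44, q = 0.000384) and not with TNFα (0.27 ± 0.44, q = 0.740). *Selenbp1* fell with both (-1.87 ± 0.41 and -2.78 ± 0.41). With IL-6 a single gene of the list was called, *Nfil3*, a transcriptional repressor named after its value was seen (0.91, q = 0.0267); that call held in 1 of the 6 fits without an array, the one without IL-6 13.

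**Figure D5:**
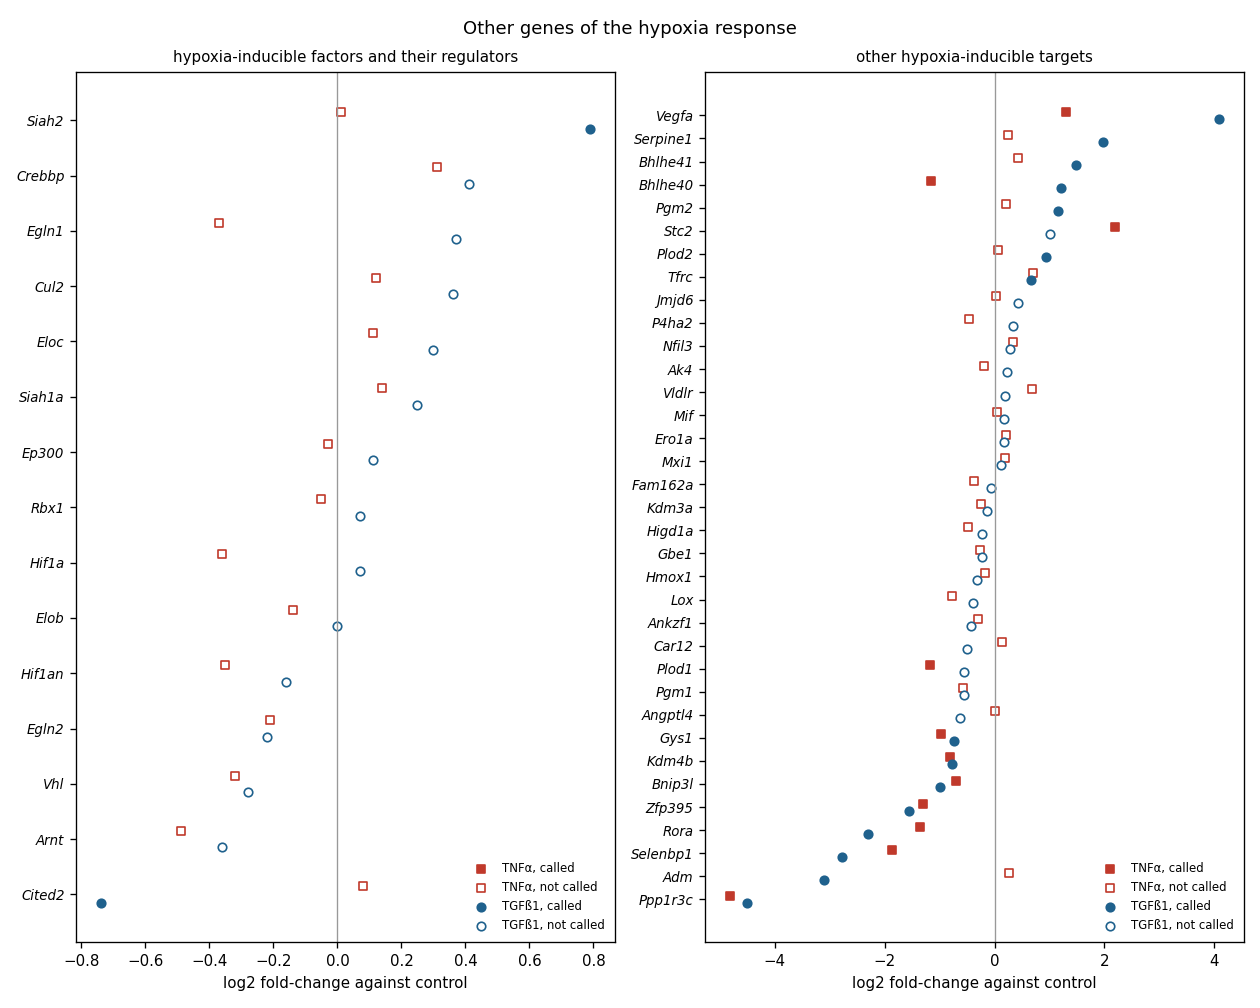
Log2 fold-change against control (x axis) of the 15 tested HIF genes and regulators (left) and of the 35 tested other hypoxia-inducible genes (right), ordered by the value with TGFß1 (y axis). Squares are TNFα and circles TGFß1, filled where called; the 2 panels have different scales, *Vegfa* with TGFß1 lies at 4.09 and *Ppp1r3c* at -4.82 with TNFα and -4.50 with TGFß1.

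Of 33 other genes of glycolysis, 20 were tested. With TNFα 1 rose and 2 fell, where 4.12% of all probes rose and 6.06% fell. With TGFß1 4 rose and 3 fell, where 7.17% and 10.8% of probes did. Called either way were 15% with TNFα and 35% with TGFß1, beside 10.2% and 18% of all probes. *Bpgm*, which diverts an intermediate of glycolysis to bisphosphoglycerate, rose with both (1.65 ± 0.30, q = 0.00322, and 1.58 ± 0.30, q = 0.00241). *Pdk2*, another kinase of pyruvate dehydrogenase, fell with both (-1.36 ± 0.26, q = 0.00486, and -1.66 ± 0.26, q = 0.000762). *Pfkfb4*, a relative of *Pfkfb3*, fell with TNFα (-1.19 ± 0.18, q = 0.00104) and was at 0.41 ± 0.18 with TGFß1 (q = 0.116). *Slc2a8*, an intracellular glucose transporter, fell with TGFß1 (-1.06 ± 0.17, q = 0.000782), a fall that was -0.46 and not called with normexp. The pentose phosphate pathway, which branches off after the hexokinase step, had 7 genes tested and 0 called by limma with either cytokine. With each, 2 of the 7 had an unadjusted p below 0.05, as had 7815 of the 29334 probes with TNFα and 10749 with TGFß1.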

How the data were processed

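RNA was labelled with Cyanine 3 and hybridised to Agilent one-color arrays, and the authors extracted the spots with Agilent Feature Extraction 10.7.3.1 (per the file headers). The deposited intensity is the processed signal, after background subtraction by that software and with no scaling between arrays. The table of the whole series held the same values (largest difference 0). Spots marked as outliers were left out, the log2 intensity was averaged per probe, and each array's 75th percentile over the 59305 spots that are not controls was subtracted. A probe was tested where all 3 arrays of some group had it well above background, which kept 29334 of 56605. Through RefSeq transcript identifiers, 33767 probes had a gene name, and the probe with the highest mean signal stood for a gene. limma 3.58.1 (R 4.3.3) fitted the 5 groups of 15 arrays, with two-sided moderated tests and Benjamini-Hochberg q-values over all tested probes, and was tested on simulated data. The number of arrays limits the precision. A legend of the paper describes the 3 arrays of a group as independent experiments, and the labels do not say which arrays share one. Values on every array are given for members called against control, with or without the slide in the model, and for members not tested. From each other list at most 4 called genes are named, apart from *Nfil3*, which was added after its value was seen. The members and lists were chosen with earlier results of these data known. Alternatives covered the scaling, background, filter, slide, run of label numbers, outlier spots, probe choice, thresholds, arrays fitted and each array left out.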

Additional observations from a re-analysis of the deposited data

How the results depend on the processing

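The number of members called stayed within 1.5 times its value in most alternatives, and no log2 fold-change of a called member changed sign. A fold-change threshold of 2 left 4 members with TNFα, 4 with TGFß1, 3 for TGFß1 against TNFα, 3 for TGFß1 against IL-1β and 2 for IL-1β against TNFα, which follows from the stricter threshold. A fit of only the groups compared gave 3 members for IL-1β against TNFα. With no filter on dim probes, 10 members were called for any difference among the 5 groups. With the slide and the run of label numbers as blocks, 1 member was called with IL-6 and 0 with IL-1β. Each run holds 1 array of every group. In that setting 9 members were called with TNFα, 11 with TGFß1 and 24 for any difference among the 5 groups. Calls over all probes rose too. They were 160 higher and 68 lower with IL-6 (19 and 0 in the main fit) and 249 and 71 with IL-1β (72 and 2). With TNFα they were 2202 and 2311 (1209 and 1777), and with TGFß1 2949 and 3626 (2102 and 3181). No count over all probes is given here for any difference or for the stricter threshold. The same holds for the fit of only the groups compared and for the fits that left out an array. Such member counts alone do not separate a change in the members from a change in calls over all probes. The cause was not tested for the last 3 settings. Leaving out 1 array at a time gave 7 to 10 members with TNFα, 9 to 12 with TGFß1, 0 with IL-1β and with IL-6, 5 to 6 for TGFß1 against TNFα, 6 to 11 for TGFß1 against IL-1β, 3 to 6 for IL-1β against TNFα and 10 to 16 for any difference, with the low of 10 without TGFß1 2. The median over the members with TGFß1 was 0.00 without control 11 and that with IL-6 was then 0.21; the median with IL-1β was -0.17 without control 6 and -0.19 without IL-1β 10. Low signal limits *Slc16a3* and *Car9*, and 3 arrays a group leave small differences undecided. The groups share no replicate number in the labels, which do not say that a run is an experiment, so the runs are a pairing read from the order of the label numbers only.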
